A study of Arabidopsis thaliana with 12 samples.

Results

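Membrane transporters and ion channels were examined in imbibed Arabidopsis seeds by their gene symbols. The rule took genes whose symbol begins with 1 of 24 family names, such as CHX, GLR, ZIP, NRT or the aquaporin names PIP and TIP, followed by a digit. Probe sets had to match a single gene, and the brightest was to be taken per gene. It found 18 genes among 13356 that had a probe set of their own, on 13513 of the 22746 probe sets. These were 7 cation/proton exchangers (CHX15, CHX16, CHX19, CHX20, CHX21, chx28 and CHX6B), 7 glutamate receptor-like channels (GLR1.4, GLR2.7, GLR2.8, GLR2.9, GLR3.3, GLR3.5 and GLR3.6), the zinc and iron transporter family members ZIP6 and ZIP9, the nitrate transporter NRT2.5 and the purine permease PUP15. Each had 1 probe set. The RefSeq annotation holds 382 genes with such a symbol, so 364 were not analysed here. Among them were all genes of 19 of the 24 families, the aquaporins, ammonium, phosphate, sulphate and sucrose transporters and ABC transporters included, and the values below say nothing of those.

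Imbibed seeds came from wild-type Col-0 plants or from pil5, a line with the Salk_072677 insertion in the gene for the bHLH factor PIL5. Far-red light was given to all of them for 5 min at 3.2 umol per square metre and second. In the red groups a red pulse of 5 min at 13 umol per square metre and second followed. Darkness for 12 h then preceded RNA extraction in every sample. The groups are called dark or red after the last light, with the genotype in front, and the 4 groups held 3 biological replicates each, on 12 arrays. In the dark groups far-red was the last light. The mutant was represented by this 1 allele, and 0 probe sets were tied to PIL5 alone, so its transcript was not checked. Whole seeds were measured, so fewer cells of a type and less RNA per cell cannot be told apart. The labels do not say whether replicates were separate seed harvests. Each p-value sets a difference against the spread between these samples. Where a fit held the replicate number as a block, shifts shared by a number were taken out of that spread.

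As background, PIL5 (also called PIF1) is a phytochrome-interacting factor that represses germination in the dark, and red light acting through phytochrome leads to its degradation. A germinating embryo takes up water, moves potassium and other osmotic solutes into vacuoles as cells expand, and releases stored nitrogen, metals and phosphate, all of which depend on membrane transport. CHX proteins are antiporters that exchange potassium or sodium for protons, and many CHX genes are best known from pollen. GLR proteins are plant relatives of animal ionotropic glutamate receptors and form cation channels, gated by amino acids, that let calcium into the cytosol. ZIP proteins bring zinc and other divalent metals into the cytosol. NRT2 proteins take up nitrate at low external concentrations.

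The arrays were comparable in scale but the replicates were not equally close. Arrays of a group correlated at r between 0.968 and 0.997, and the lowest value belonged to the pil5 red group. The third pil5 red array had 1302 probe sets at least 2-fold away from the median of its group. The third arrays of the other groups had between 320 and 506. The first and second arrays of all groups had between 1 and 30. Deviations from group means correlated at r from 0.17 to 0.71 between arrays of the same number in different groups. Between arrays of other numbers in different groups r was -0.68 to 0.41, so the ranges overlap, and 11 of 12 arrays correlated best with their own number. Pairing by every number could not be told from a shift shared by the third arrays. Values from a fit with the replicate number as a block are given as an alternative where they change a call. Of the seed storage and late embryo marker genes 1 of 15 was measured, AT1G03890 of the 12S storage proteins. It read 8.46 to 8.67 in Col-0 dark, 7.09 to 8.21 in Col-0 red, 7.01 to 7.77 in pil5 dark and 6.76 to 8.17 in pil5 red, above the median of all probe sets (6.26). The 3 Col-0 dark arrays thus lay above all 9 others for this marker. Of 11 green tissue markers 0 were measured, of 3 seed coat markers 1, BAN, at 4.10 to 4.96, and of 1 endosperm marker 0. The labelled tissue therefore rests on 1 marker here.

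Most of the transport genes gave low signals. Of the 18 probe sets, 6 had a mean below the lower quartile of all probe sets (4.25), 10 lay between this quartile and the median, and 2, GLR3.3 and ZIP6, lay above the median. In 9 genes no array reached a log2 signal of 5. The table holds no detection calls, so a transcript that was absent cannot be told from one near background, and signals of different probe sets are not compared as transcript levels. The signals also moved little. The highest and the lowest of the 12 arrays differed by under 1 log2 unit in 14 of 18 genes, and the same held for 74% of all probe sets. The 4 genes with a wider range were GLR3.5, ZIP6, CHX20 and NRT2.5.

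**Figure D1:**
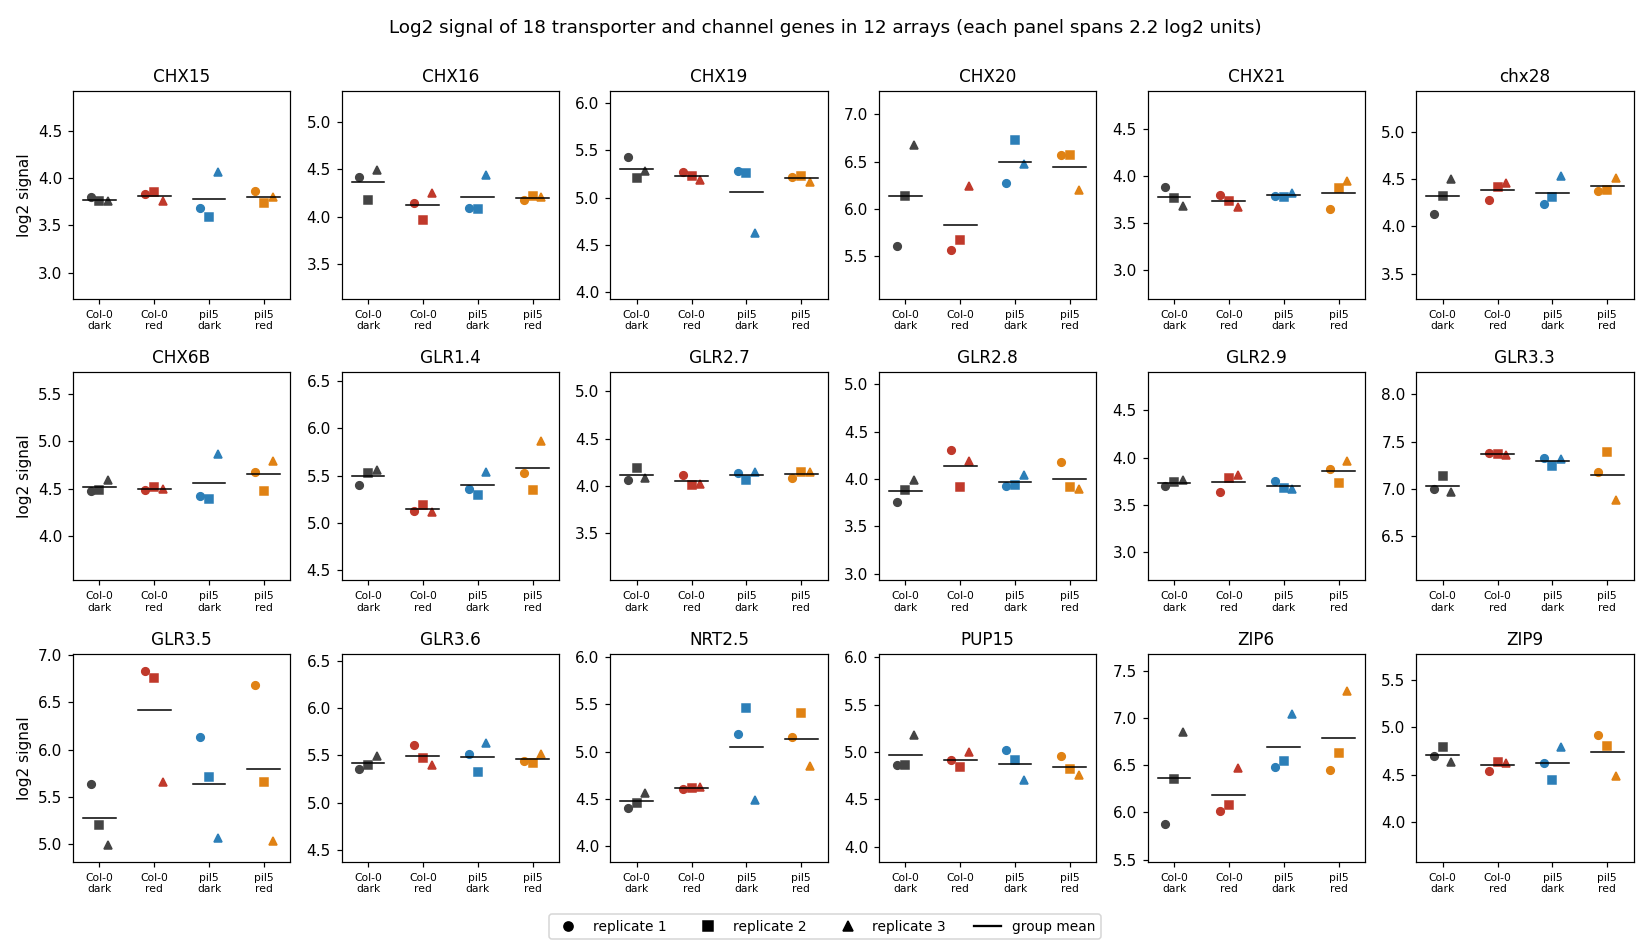
Log2 signal (vertical axis) of the 18 genes in each of the 4 groups (horizontal axis), with 1 marker shape per replicate number and a line at the mean of 3 arrays. Every panel spans the same number of log2 units, so that GLR3.5, ZIP6, CHX20 and NRT2.5 show wide scatter while most other genes form nearly level rows.

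In limma without a block, 0 of 18 transport genes passed an adjusted p of 0.05 in any of the 5 comparisons. For red in Col-0 (Col-0 red minus Col-0 dark) 15.1% of all probe sets passed, for pil5 in the dark (pil5 dark minus Col-0 dark) 12.1%, for red in pil5 (pil5 red minus pil5 dark) 0%, for pil5 after red (pil5 red minus Col-0 red) 0.193% and for the interaction of genotype and red light 6.34%. A count of 0 lies below the larger of those shares, and that difference was not tested. At an unadjusted p below 0.05 limma marked 3 of 18 for red in Col-0 (26.7% of all probe sets), 2 for pil5 in the dark (24.8%), 0 for red in pil5 (1.17%), 3 for pil5 after red (12%) and 2 for the interaction (21.2%).

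Fitted with replicate number as a block, limma called 3 of 18 for red in Col-0, where 26.4% of all probe sets passed. GLR3.5 and GLR3.3 rose and GLR1.4 fell. For pil5 in the dark 1 of 18 was called, NRT2.5, which was higher (23.8% of all probe sets). For red in pil5 0 of 18 were called (0%), also in the fits with 1 array left out. For pil5 after red 2 of 18 were called, ZIP6 and GLR1.4, both higher (8.27%). For the interaction 2 of 18 were called, GLR1.4 and GLR3.5 (17.5%). For pil5 after red the 2 genes make 11.1%, near the 8.27% of all probe sets. The share of called transport genes equalled that of all probe sets at 0% for red in pil5, and was below it in the other 3 comparisons. These differences in share were not tested.

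The missing calls came with intervals that bound the size of most differences. For red in Col-0, the 95% interval of limma without a block stayed within a 2-fold change either way for 17 of 18 genes, GLR3.5 being the exception, and for 82.9% of all probe sets. It stayed within 2-fold for 16 of 18 genes for pil5 in the dark (83.7% of all), 17 for red in pil5 (93.8%), 15 for pil5 after red (88.2%) and 15 for the interaction (72.7%). The median size of the log2 difference was 0.09 for the red effect in Col-0 and also 0.09 for pil5 in the dark, against 0.15 for all probe sets in both. A low signal compresses log2 differences, and its part in these values was not tested.

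**Figure D2:**
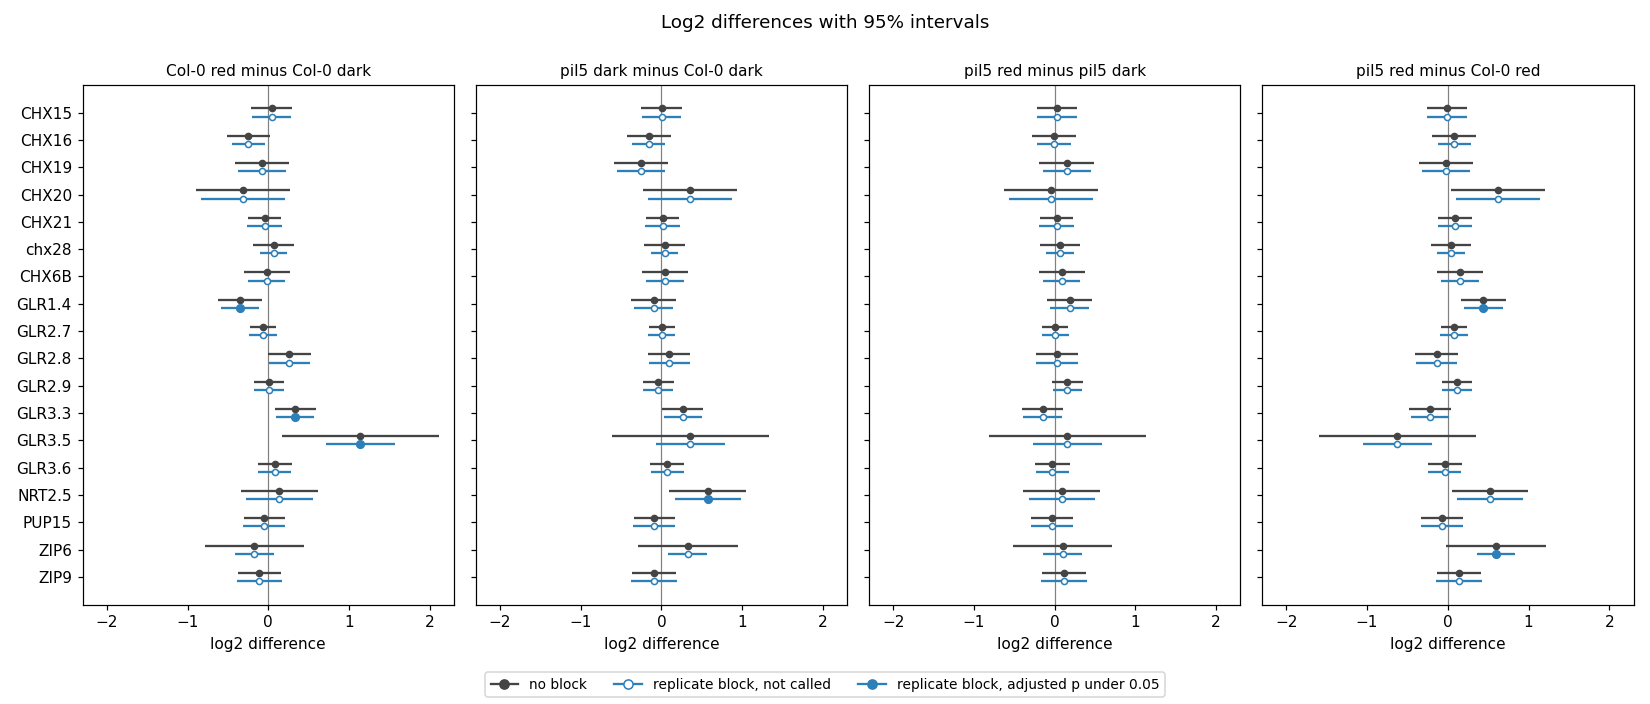
Log2 difference (horizontal axis) with its 95% interval for each of the 18 genes in 4 comparisons, from limma without a block (dark grey) and with a block for replicate number (blue, filled where adjusted p was under 0.05). Most intervals cross 0 and stay between -1 and 1, and GLR3.5 has the widest intervals without the block.

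Among the glutamate receptor-like channels, GLR3.5 (AT2G32390) had the largest difference of all 18 genes. GLR3.5 is known to raise cytosolic calcium in germinating seeds and to counteract the inhibition of germination by abscisic acid. Its log2 signals were 5.64, 5.20 and 4.99 in Col-0 dark seeds, in the order of the replicate numbers, and 6.83, 6.76 and 5.66 in Col-0 red seeds. They were 6.14, 5.71 and 5.06 in pil5 dark and 6.69, 5.66 and 5.04 in pil5 red. The Col-0 red values were all above the Col-0 dark values, though the third Col-0 red array exceeded the first Col-0 dark array by little, and both pil5 groups overlapped with both Col-0 groups. In each group the array with number 1 was the highest and the array with number 3 the lowest.

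The difference for red in Col-0 was 1.14 on the log2 scale (SE 0.44, adjusted p = 0.12), from 5.28 ± 0.33 to 6.42 ± 0.66 (SD, n = 3). In limma on only the 6 Col-0 arrays, without a block, adjusted p was 0.057. With the block the SE was 0.19 and adjusted p = 0.0025. By replicate number the differences were 1.20, 1.56 and 0.66, all of them positive. This call with the block was kept when any 1 of the 12 arrays was left out, with adjusted p between 0.00055 and 0.018. The storage protein marker AT1G03890 was on all 3 Col-0 dark arrays above all 3 Col-0 red arrays, and its part in this difference and in those of the other genes against Col-0 dark was not tested. In the dark the pil5 minus Col-0 difference of GLR3.5 was 0.36 (SE 0.44, adjusted p = 0.71, and 0.22 with the block). Red in pil5 gave 0.16 (SE 0.44, adjusted p = 1) and by replicate number 0.55, -0.05 and -0.03. Only number 1 was positive, and each number compares 1 array with 1 array.

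The red effect on GLR3.5 in pil5 minus that in Col-0 was -0.98 (SE 0.62, adjusted p = 0.43), and adjusted p = 0.035 with the block. Split by number it was -0.65, -1.61 and -0.69. With the block it was -0.87 without the third pil5 red array (adjusted p = 0.048). The call ended when any 1 of 9 other arrays was left out, with adjusted p up to 0.1. After red, pil5 differed from Col-0 by -0.62 (SE 0.44, adjusted p = 0.62, and 0.077 with the block).

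GLR1.4 (AT3G07520), which in frog oocytes forms a cation channel opened by methionine, was the one member called lower for red in Col-0 with the block. It read 5.40, 5.53 and 5.56 in Col-0 dark seeds and 5.13, 5.19 and 5.12 in Col-0 red seeds. It read 5.36, 5.30 and 5.54 in pil5 dark and 5.53, 5.35 and 5.87 in pil5 red. All 3 Col-0 red arrays lay below each of the other 9 arrays. The third pil5 red array, which stood apart in many probe sets, had the highest value.

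For red in Col-0 the log2 change of GLR1.4 was -0.35 (SE 0.13, adjusted p = 0.092, and 0.037 with the block), from 5.49 ± 0.08 to 5.14 ± 0.04 (SD, n = 3). In limma on only the 6 Col-0 arrays it had adjusted p = 0.03. Without the third pil5 red array it had adjusted p = 0.021 with no block. It was called in 3 of 18 alternatives without a block, with adjusted p up to 0.24. In pil5 the change after red was 0.19 (SE 0.13, 95% interval -0.09 to 0.46, adjusted p = 1). After red GLR1.4 was higher in pil5 than in Col-0 by 0.44 (SE 0.13, adjusted p = 0.19, 0.42 on only the 6 red arrays, and 0.037 with the block). Without the third pil5 red array this was 0.32 with the block, and the call ended (adjusted p = 0.072). The interaction was 0.54 (SE 0.18, adjusted p = 0.1, and 0.038 with the block), and it was positive in all 3 replicate numbers (0.44, 0.39 and 0.78). Leaving out the third pil5 red array, the interaction was 0.42 with the block and its adjusted p = 0.05, at the threshold.

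GLR3.3 (AT1G42540), a channel known for carrying electrical and calcium signals between wounded and distant leaves, gave the strongest signal of the 7 GLR probe sets. It read 6.9997, 7.13 and 6.97 in Col-0 dark seeds and 7.38, 7.37 and 7.36 in Col-0 red seeds. The pil5 dark arrays read 7.33, 7.25 and 7.31 and the pil5 red arrays 7.18, 7.39 and 6.88. Col-0 dark lay below both Col-0 red and pil5 dark with no overlap, while the pil5 red arrays spanned the values of all other groups.

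GLR3.3 differed by 0.33 for red in Col-0 (SE 0.12, adjusted p = 0.082, and 0.042 with the block). In limma on only the 6 Col-0 arrays adjusted p = 0.034, and without the third pil5 red array it was 0.017 with no block. GLR3.3 was called for red in Col-0 in 4 of 18 alternatives without a block, with adjusted p up to 0.2. For pil5 in the dark it differed by 0.26 (SE 0.12, adjusted p = 0.19, and 0.1 with the block, or 0.027 with the block and without the third pil5 red array). These comparisons share the 3 Col-0 dark arrays. The interaction was -0.48 (SE 0.16, adjusted p = 0.11, and 0.052 with the block).

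With the block, the calls of GLR1.4 and GLR3.3 for red in Col-0 each ended without any 1 of 8 arrays, with adjusted p up to 0.17 and 0.16 and the sign kept. The calls of GLR1.4 for pil5 after red and for the interaction ended without any 1 of 9 and 10 arrays, with adjusted p up to 0.15 and 0.11.

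The other 4 GLR genes were not called in any comparison, with or without the block. Of all probe sets at most 15.1% passed in a comparison without the block and at most 26.4% with it. GLR3.6 (AT3G51480), which acts with GLR3.3 in wound signalling in leaves, read between 5.32 and 5.63 over the 12 arrays, and its difference for red in Col-0 was 0.08 (95% interval -0.13 to 0.29). GLR2.7 (AT2G29120), GLR2.8 (AT2G29110) and GLR2.9 (AT2G29100) lie next to each other on the chromosome, and the family members of this cluster are known to let calcium in during immune responses of leaves. Whether their probes also bind transcripts of the neighbouring copies was not tested. GLR2.7 stayed between 4.01 and 4.19, the narrowest range of the 18 genes. GLR2.9, the lowest of the GLR signals, read 3.70, 3.74 and 3.76 in Col-0 dark seeds and 3.64, 3.79 and 3.82 in Col-0 red seeds. In pil5 it read 3.75, 3.67 and 3.67 in the dark and 3.88, 3.73 and 3.97 after red, and all 4 groups overlapped. GLR2.8 had the largest difference of the cluster, 0.26 for red in Col-0 (SE 0.12, adjusted p = 0.19, and 0.13 with the block). All 3 lay below the lower quartile of all probe sets.

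Of the 7 CHX exchangers 0 were called in the 5 comparisons, with or without the block. Of all probe sets, between 0% and 15.1% passed without the block, depending on the comparison, and between 0% and 26.4% with it. A difference from these shares was not tested. CHX20 (AT3G53720), an endomembrane exchanger known for its role in potassium handling and stomatal opening in guard cells, had the highest CHX signal and the widest range. It read 5.61, 6.14 and 6.68 in Col-0 dark seeds and 5.57, 5.67 and 6.25 in Col-0 red seeds. It read 6.28, 6.73 and 6.47 in pil5 dark and 6.57, 6.57 and 6.20 in pil5 red. The pil5 arrays lay in the upper part of the range, but the third arrays of both Col-0 groups reached the same values.

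After red CHX20 differed between pil5 and Col-0 by 0.62 (SE 0.26, 95% interval 0.04 to 1.20, adjusted p = 0.38, and 0.14 with the block). By replicate number the difference was 1.01, 0.90 and -0.05, so that numbers 1 and 2 carried it. Without the third pil5 red array and with the block it was 0.90 (adjusted p = 0.015). Without any other 1 array, adjusted p with the block was 0.083 to 0.4. In the dark the difference was 0.35 (SE 0.26, adjusted p = 0.49), and for red in Col-0 it was -0.31 (SE 0.26, adjusted p = 0.55).

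CHX16 (AT1G64170) was lower in Col-0 red than in Col-0 dark in each replicate number (-0.28, -0.21 and -0.25), with a log2 change of -0.25 (SE 0.12, adjusted p = 0.24, and 0.083 with the block). The groups overlapped. With the block, adjusted p was 0.04 without the third pil5 red array, and 0.065 to 0.29 without any other 1 array. CHX19 (AT3G17630) read between 4.62 and 5.43, and its lowest value was that of the third pil5 dark array, while the other 11 arrays were at 5.17 or above. CHX21 (AT2G31910), the lowest CHX signal, read 3.89, 3.76 and 3.68 in Col-0 dark seeds and 3.80, 3.74 and 3.67 in Col-0 red seeds. Its pil5 values were 3.79, 3.78 and 3.82 in the dark and 3.65, 3.87 and 3.94 after red, with all groups overlapping. CHX15 (AT2G13620), chx28 (AT3G52080) and CHX6B (AT1G08135) had log2 differences between -0.02 and 0.15 in the 4 comparisons of groups. The 95% intervals of CHX15, CHX21, chx28 and CHX6B stayed within 2-fold in all 5 comparisons. Their log2 signals were below 5 on every array, so these intervals bound the signal and not a change of the transcript.

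ZIP6 (AT2G30080), a member of the ZIP metal transporter family, was the other gene with a signal above the median. It read 5.87, 6.36 and 6.85 in Col-0 dark seeds and 6.02, 6.08 and 6.47 in Col-0 red seeds. It read 6.48, 6.54 and 7.04 in pil5 dark and 6.45, 6.63 and 7.28 in pil5 red. The pil5 dark arrays all lay above the Col-0 red arrays, and the other pairs of groups overlapped. In each group the array with number 1 was the lowest and that with number 3 the highest, and within each number both pil5 arrays lay above both Col-0 arrays.

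After red ZIP6 was higher in pil5 by 0.60 (SE 0.28, adjusted p = 0.43). With the block the SE was 0.11 and adjusted p = 0.011. The difference was 0.43, 0.55 and 0.81 by replicate number. Without the third pil5 red array and with the block it was 0.54 (adjusted p = 0.016). The call ended without the second or the third Col-0 red array, with adjusted p up to 0.059. In the dark pil5 differed by 0.33 (SE 0.28, adjusted p = 0.56, and 0.053 with the block). Red light gave -0.17 in Col-0 (adjusted p = 0.8) and 0.10 in pil5 (adjusted p = 1).

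ZIP9 (AT4G33020), whose transcript is known to rise under zinc deficiency, read between 4.44 and 4.91. Its largest difference between groups was 0.14 for pil5 after red (SE 0.12, adjusted p = 0.71), and it was not called with or without the block. The intervals of ZIP9 stayed within 2-fold in all 5 comparisons.

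NRT2.5 (AT1G12940), a high-affinity nitrate transporter best known from nitrogen-starved roots and leaves, had larger differences between genotypes than between light treatments. It read 4.40, 4.46 and 4.56 in Col-0 dark seeds and 4.60, 4.61 and 4.63 in Col-0 red seeds. It read 5.19, 5.47 and 4.49 in pil5 dark and 5.15, 5.40 and 4.85 in pil5 red. The Col-0 red arrays lay just above the Col-0 dark arrays, all Col-0 arrays lay below 4.7, and 5 of the 6 pil5 arrays lay above them, the exception being the third pil5 dark array.

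For pil5 in the dark the log2 difference of NRT2.5 was 0.57 (SE 0.21, adjusted p = 0.12, and 0.048 with the block). Its values by number were 0.78, 1.01 and -0.07. When the third pil5 dark array was left out it was 0.85 (adjusted p = 0.019 without the block). With the block the call ended without any 1 of 9 arrays, with adjusted p up to 0.21. After red the difference was 0.52 (SE 0.21, adjusted p = 0.37, and 0.12 with the block), positive in all 3 replicate numbers and with no overlap between the groups. Red itself gave 0.14 in Col-0 (95% interval -0.34 to 0.61) and 0.09 in pil5 (95% interval -0.39 to 0.56), and the interaction was -0.05 (adjusted p = 0.96).

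PUP15 (AT1G75470), of the purine permease family, whose members carry purines and cytokinins, read between 4.70 and 5.17. Its group means were 4.97 in Col-0 dark seeds, 4.92 in Col-0 red seeds, 4.88 in pil5 dark seeds and 4.84 in pil5 red. Its differences lay between -0.09 and 0.02 over the 5 comparisons, none was called, and each interval stayed within 2-fold.

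Families were then compared over the 4 groups by the mean log2 signal of their genes on each array. The 7 GLR genes had 4.99 ± 0.02 in Col-0 dark seeds, 5.19 ± 0.11 in Col-0 red seeds, 5.09 ± 0.07 in pil5 dark seeds and 5.14 ± 0.13 in pil5 red seeds (SD, n = 3 arrays). The 3 Col-0 red arrays (5.29, 5.22 and 5.08) lay above the 3 Col-0 dark arrays (4.99, 5.01 and 4.98), and GLR3.5 had the largest difference, while the median log2 difference of the 7 genes was 0.08. The 7 CHX genes had 4.60 ± 0.10, 4.51 ± 0.06, 4.61 ± 0.08 and 4.65 ± 0.01 in the same order, and the 2 ZIP genes 5.53 ± 0.23, 5.39 ± 0.14, 5.65 ± 0.23 and 5.76 ± 0.11. In both families the pil5 red arrays lay above the Col-0 red arrays with no overlap. Of the CHX genes CHX20 had the largest difference for pil5 after red (0.62), and of the ZIP genes ZIP6 (0.60). The median log2 difference for pil5 after red was 0.08 over the CHX genes and 0.00 over all probe sets. No test was made of these family means.

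**Figure D3:**
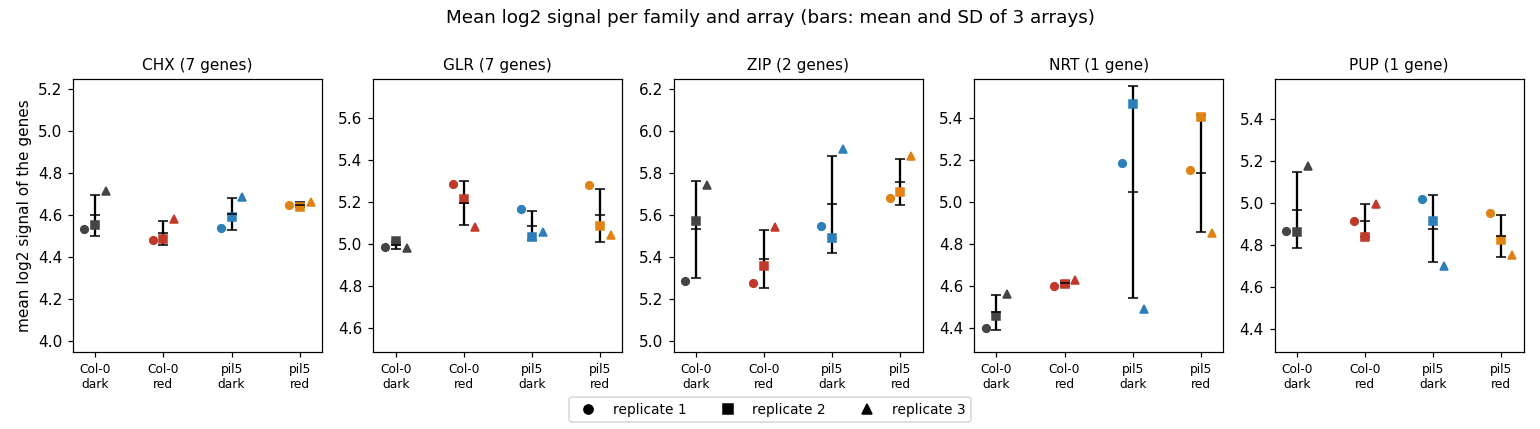
Mean log2 signal of the genes of each family (vertical axis, same span in each panel) on each array, by group (horizontal axis), with black bars for the mean and SD of 3 arrays. CHX means stay within a narrow band, the GLR group mean is highest in Col-0 red, and NRT2.5, the 1 NRT gene, is higher in pil5 on all arrays but the third pil5 dark array.

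The replicate number accounted for more of the variation than the group in some of these genes. The group held 40.1% and the number 50.8% of the sum of squares of GLR3.5 over the 12 arrays, and 37.3% and 56.9% of that of ZIP6. For chx28 the number held 73.9%, and the array with number 3 was the highest in all 4 groups. For GLR1.4 (63.1%), NRT2.5 (58.3%) and GLR3.3 (57.4%) the group held the larger share. Over the 18 genes the median share was 33.5% for the group and 16.5% for the number, against 35.9% and 24.9% over all probe sets. The meaning of the number is not given in the labels.

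**Figure D4:**
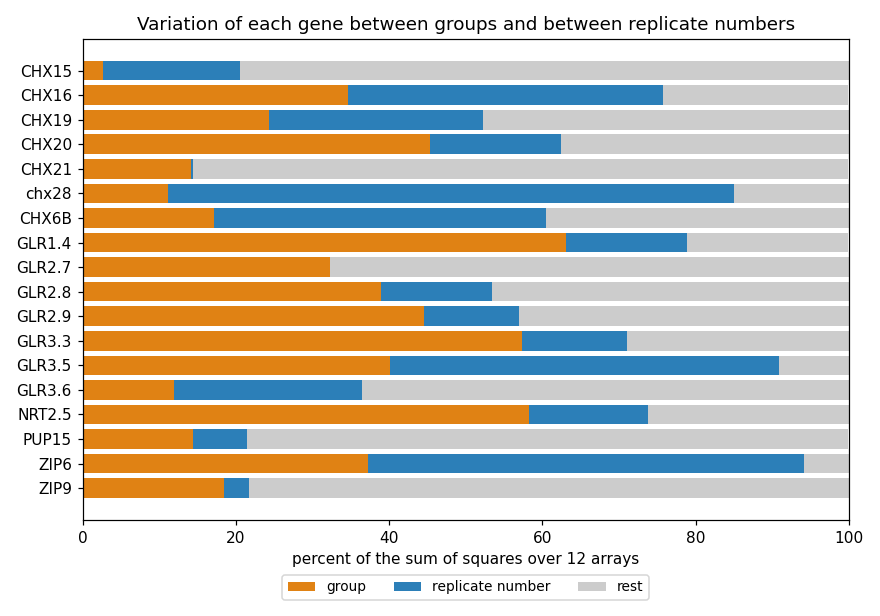
Share of the sum of squares over 12 arrays (horizontal axis, percent) that lay between the 4 groups, between the 3 replicate numbers and in the rest, for each of the 18 genes. ZIP6 and GLR3.5 have the smallest rest, and CHX15, CHX21, PUP15 and ZIP9 have mostly rest.

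Transport genes outside the symbol rule were few as well. A second pattern of symbols found 23, among them 14 SWEET sugar transporters, 3 tonoplast sugar transporters (TMT1 to TMT3) and 3 proton pump subunits of the VHA-A type. Of these, 1 was called without the block: VHA-A3 (AT4G39080), a subunit of the vacuolar proton pump that powers exchange across the tonoplast, was higher in pil5 than in Col-0 in the dark by 0.38 (SE 0.10, adjusted p = 0.039), where 12.1% of all probe sets passed. With the block 2 were higher (TMT1 and VHA-A3) and 3 lower (SWEET6, TMT2 and VHA-A2) for pil5 in the dark, where 23.8% of all probe sets passed, and 1 was lower, SWEET6, for red in Col-0 (26.4% of all). For the interaction 1 was called with the block (17.5% of all), SWEET6, at 2.08 (SE 0.85, adjusted p = 0.19, and 0.026 with the block). SWEET6 (AT1G66770) read 6.17, 6.68 and 7.39 in Col-0 dark seeds, 4.75, 5.19 and 6.26 in Col-0 red seeds, 4.84, 4.77 and 4.89 in pil5 dark seeds and 4.68, 4.87 and 7.16 in pil5 red. The third pil5 red array was thus near the Col-0 dark level while the other 5 pil5 arrays were below 5. Its log2 difference was -1.35 for red in Col-0 (SE 0.60, adjusted p = 0.18, and 0.024 with the block) and -1.91 for pil5 in the dark (SE 0.60, adjusted p = 0.066, and 0.0059 with the block). The median log2 difference of the 23 genes was -0.02 for red in Col-0, and it was 0.02 for pil5 in the dark.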

How the data were processed

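RNA levels were measured on 12 Affymetrix arrays, 1 per sample, in 4 groups of 3 taken from the sample titles. The authors deposited log2 signals of 22810 probe sets, with array medians between 6.08 and 6.28. MAS5 5.0 and RMA appear in the submitters' processing notes, and which of them made these values is not given in the sources used here. The values were not rescaled. Leaving out 64 control probe sets gave 22746 to test.

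The supplied probe set annotation tied 13513 of them to 1 gene, 503 to several and 8730 to none listed. Loci were taken from the RefSeq table (TAIR10.1), which matched 13436. No build is stated for the array, so no positions are given. Sequences and promoter motifs were not used here.

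A single limma 3.58.1 fit (R 4.3.3) with a mean for each group took in all 12 arrays, two-sided, Benjamini-Hochberg over 22746 probe sets, threshold 0.05. The number of arrays limits the precision. The replicate number was checked for pairing: deviations from group means correlated at r from 0.17 to 0.71 between arrays of the same number in different groups, and from -0.68 to 0.41 otherwise. These ranges overlap, and 11 of 12 arrays correlated best with their own number. In every group the third array had the most probe sets away from the group median. The check therefore cannot tell pairing by every number from a shift shared by the third arrays. The labels do not state what a number stands for. Values without the block are given first.

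All genes of the rule could be named. Values on every array were given for genes called in a fit with or without the block and for the highest and lowest signals of families with 3 or more genes. Among the genes matched by the second symbol pattern, 4 of other kinds were left out by name. The members and lists were chosen with earlier results of these data known. The fits were tested on simulated data. Python 3.11.15 with matplotlib 3.10.9 drew the figures. The alternatives tried were the replicate block, only the 6 arrays compared, centring on the median, quantile normalization, a filter on the dimmest 25% of probe sets, eBayes with trend and robust, array weights, and leaving out each array in turn, without the block and, chosen after seeing the data, also with it.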

Additional observations from a re-analysis of the deposited data

Results flagged for a closer look

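For GLR1.4 the red effect in pil5 differed from that in Col-0 by 0.54 on the log2 scale, and the interaction passed in limma with the replicate number as a block (adjusted p = 0.038) but not without it (adjusted p = 0.1). It was positive in 3 of 3 replicate numbers. For GLR3.5 the difference between the red effects was -0.98 (adjusted p = 0.035 with the block and 0.43 without it), negative in 3 of 3 replicate numbers. Over the alternatives, adjusted p ranged from 0.019 to 0.21 for GLR1.4 and from 0.01 to 0.69 for GLR3.5.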

How the results depend on the processing

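Without the block 0 of 18 transport genes were called in each comparison, and the replicate block changed this to 3 for red in Col-0, 1 for pil5 in the dark, 2 for pil5 after red and 2 for the interaction. It changed no other call of these genes. With array weights 3 were called in each of these 4 comparisons: GLR1.4, GLR3.3 and GLR3.5 for red in Col-0, CHX20, NRT2.5 and ZIP9 for pil5 in the dark, CHX20, NRT2.5 and ZIP6 for pil5 after red, and GLR1.4, GLR3.5 and ZIP9 for the interaction. Of all probe sets, 33.2%, 30.8%, 12.3% and 23% were then called, so that 3 of 18 (16.7%) lay below that share except for pil5 after red. In limma on only the 6 arrays compared 2 were called for red in Col-0, GLR1.4 and GLR3.3 (18% of all probe sets), and 0 in the other 3 comparisons of groups. Without 1 array and without the block the counts were 0 to 2 for red in Col-0, 0 to 1 for pil5 in the dark, 0 for pil5 after red and 0 to 1 for the interaction. The calls were those of GLR1.4 and GLR3.3 without the third pil5 red array and of GLR3.3 without the second for red in Col-0, of NRT2.5 without the third pil5 dark array, and of GLR3.3 without the second pil5 red array for the interaction. Within the block the counts without 1 array were 1 to 4, 0 to 3, 0 to 3 and 0 to 2 in the same order, and over all probe sets 3496 to 7785, 2935 to 7377, 559 to 2447 and 1672 to 5175. Without the block those over all probe sets were 1587 to 4668, 769 to 3965, 3 to 112 and 68 to 2104. Red in pil5 had 0 in all of these. Centring on the median, quantile normalization, a filter on the dimmest 25% of probe sets (12 of 18 genes then tested) and eBayes with trend and robust gave 0 calls in all 5 comparisons. Of all probe sets these settings called 13.8% to 15.6% for red in Col-0, 10.7% to 12.9% for pil5 in the dark and 5.46% to 6.99% for the interaction. They called 0% for red in pil5 and 0.198% to 0.317% for pil5 after red. None of the log2 changes called with the block turned its sign under the alternatives run. ZIP9 for pil5 in the dark, called lower with array weights (-0.24), stood at 0.03 with the block and without the second pil5 dark array (adjusted p = 0.91). The mean of several probe sets per gene was not run, since each gene had 1.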

Other observations

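These genes were picked after their values were seen. The third pil5 dark array held the extreme value of its group by a wide margin in several transport genes. CHX19 read 5.28, 5.26 and 4.62 in pil5 dark, CHX15 3.68, 3.58 and 4.06, CHX6B 4.42, 4.39 and 4.86 and NRT2.5 5.19, 5.47 and 4.49, in the order of the replicate numbers. The pil5 red arrays read 7.18, 7.39 and 6.88 for GLR3.3 in the same order, and the third was the lowest of all 12 arrays for this gene.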
